A study of Mus musculus with 40 samples.

Results

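The renin-angiotensin-aldosterone genes described here are 9 genes taken from a named list, Ren1, Agt, Ace, Agtr1a, Mme, Enpep, Anpep, Nr3c2 and Hsd11b2. All 9 were present among the 28467 genes of the bulk table and the 32285 genes of the nucleus table, and all 9 passed the filter on low counts in bulk at every time. The right kidney of male C57BL/6 mice aged 8-12 weeks was studied after removal of the left kidney (unilateral nephrectomy) or after a sham operation, and the labels name no transgene or drug. Bulk RNA-seq of a kidney section covered 6 nephrectomised and 6 sham-operated mice at 24, 48 and 72 h alike. Nuclei of a further 2 sham and 2 nephrectomised mice were sequenced singly at 24 h. The 24 h bulk libraries were labelled batch 1 and the 48 and 72 h libraries batch 2, so time and batch cannot be told apart between 24 h and the later times. Each sample carried its own mouse number, and the p-values measure the spread between mice.

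Renin, made by juxtaglomerular cells in the wall of the afferent arteriole, cleaves angiotensinogen to angiotensin I, which angiotensin-converting enzyme turns into the pressor peptide angiotensin II. In the kidney much of the peptide is then formed and broken down at the brush border of the proximal tubule, where converting enzyme and the peptidases neprilysin, aminopeptidase A and aminopeptidase N sit. Angiotensin II acts through its receptor on vessels, mesangium and tubule and stimulates the adrenal cortex to release aldosterone, which acts through the mineralocorticoid receptor on sodium reabsorption in the distal nephron.

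Ren1 encodes renin, Agt angiotensinogen, Ace angiotensin-converting enzyme and Agtr1a the main angiotensin II receptor of the mouse kidney. Mme encodes neprilysin, Enpep aminopeptidase A and Anpep aminopeptidase N. Nr3c2 encodes the mineralocorticoid receptor, and Hsd11b2 the enzyme that inactivates glucocorticoid in aldosterone-responsive cells. On GRCm38 (GENCODE M21), Ren1 spans chr1:133350510-133360325, Agt chr8:124556534-124569706 and Ace chr11:105967945-105989964. Agtr1a spans chr13:30336441-30382867, Mme chr3:63241537-63386030, Enpep chr3:129269175-129332720 and Anpep chr7:79821803-79861059. Nr3c2 spans chr8:76899442-77245012 and Hsd11b2 chr8:105518755-105523988.

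The bases before the start sites of Ren1, Ace and Anpep are shown because these 3 genes rose most in the bulk data at 48 h. RefSeq promoter windows (GRCm38.p6) were found for 7 of the 9 genes. Ace had a second window, chr11:105974939-105975188, which is not shown. The Anpep window lies inside the GENCODE span given above, so its start site is not the start of that span. The sequences run 5′ to 3′ on the gene's own strand and cover the 250 bases before the annotated start, and capitals mark TATAAA or its reverse complement TTTATA.
Ren1, chr1:133350424-133350673, plus strand: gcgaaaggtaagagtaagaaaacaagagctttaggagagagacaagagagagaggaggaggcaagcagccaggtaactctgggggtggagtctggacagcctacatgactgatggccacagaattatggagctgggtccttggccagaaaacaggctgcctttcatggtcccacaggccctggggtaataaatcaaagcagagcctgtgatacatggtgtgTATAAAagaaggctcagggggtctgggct
Ace, chr11:105967698-105967947, plus strand: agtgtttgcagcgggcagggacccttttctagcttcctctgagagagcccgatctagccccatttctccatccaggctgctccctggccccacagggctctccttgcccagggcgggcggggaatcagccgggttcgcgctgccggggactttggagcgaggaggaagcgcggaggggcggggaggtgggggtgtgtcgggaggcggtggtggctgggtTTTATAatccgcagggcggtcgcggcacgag
Anpep, chr7:79848211-79848460, minus strand: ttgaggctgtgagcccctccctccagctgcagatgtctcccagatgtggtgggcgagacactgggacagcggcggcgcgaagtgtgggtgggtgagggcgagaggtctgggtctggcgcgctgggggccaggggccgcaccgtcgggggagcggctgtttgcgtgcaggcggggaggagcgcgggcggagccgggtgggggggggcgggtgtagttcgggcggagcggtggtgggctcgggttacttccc
The Ren1 window held TATAAA starting at position -29 from the start site, and the Ace window held the reverse complement starting at -31, whereas the Anpep window held neither. Over all 32851 mouse promoter windows of the same length, 12.4% held this motif on either strand. AGAACA (16.1% of windows), the palindromes TGACGTCA (1.55%) and CACGTG (6.02%) were searched on both strands as well and were absent from all 3 windows; none of these motifs overlaps another. A letter match is a description and not a binding site.

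Bulk libraries held 14.9 to 24.1 estimated counts, in units of 1000000. Levels are given in CPM, counts per 1000000 counts of a library after TMM scaling. Genes encoded by mitochondrial DNA took 21.5 to 26.7% of counts at 24 h and 13.6 to 16.1% in the other batch 2 libraries, but 25.8 to 26.4% in nephrectomy mice 1 to 5 at 48 h. A profile score, which places each library by its log2 levels of 51 genes with pseudogene names on a line from the mean of the 48 and 72 h shams (0) to the mean of the 24 h shams (1), separated the same libraries: it was 0.355 to 0.592 in those 5 mice, -0.058 in nephrectomy mouse 6 and -0.0415 to 0.126 in the 48 h shams. At 24 h the score also separated the surgery groups, at 0.499 to 0.952 in nephrectomised mice and 0.985 to 1.02 in shams. The 5 libraries of 48 h stand apart from all others of their batch. The 48 h tests below are therefore given with all 6 nephrectomy mice and with mouse 6 alone. Proximal tubule markers summed to 10208 to 14574 CPM in every bulk library. The 4 adrenal cortex and medulla markers present in the bulk table, of 6 listed, were each under 1 CPM in every group, and their summed level was 0.142 to 1.12 CPM.

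In bulk tissue 6 of the 9 genes differed between nephrectomised and sham mice at 48 h, and none passed the test at 24 or 72 h. In the 48 h calls, nephrectomy and whatever sets the 5 libraries apart cannot be told apart. At 48 h, 4 genes rose: Anpep 1.72-fold, Ren1 1.66-fold, Ace 1.33-fold and Agtr1a 1.25-fold in mean CPM. Mme and Nr3c2 fell, to 0.799 and 0.876 of the sham mean. None of the 6 was called when the 5 nephrectomy libraries that stand apart were left out. By comparison 32.9% of the 14280 genes tested at 48 h were called, 16.9% higher and 16.0% lower (edgeR quasi-likelihood test, Benjamini-Hochberg adjusted p under 0.05), 27.3% of 14104 at 24 h and 1.71% of 14556 at 72 h. The median log2 fold change of the 9 genes was 0.03 at 24 h, 0.33 at 48 h and -0.04 at 72 h, against 0.01, -0.04 and 0.00 over all genes tested. In bulk tissue, fewer cells of a type and less RNA per cell cannot be told apart.

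**Figure D1:**
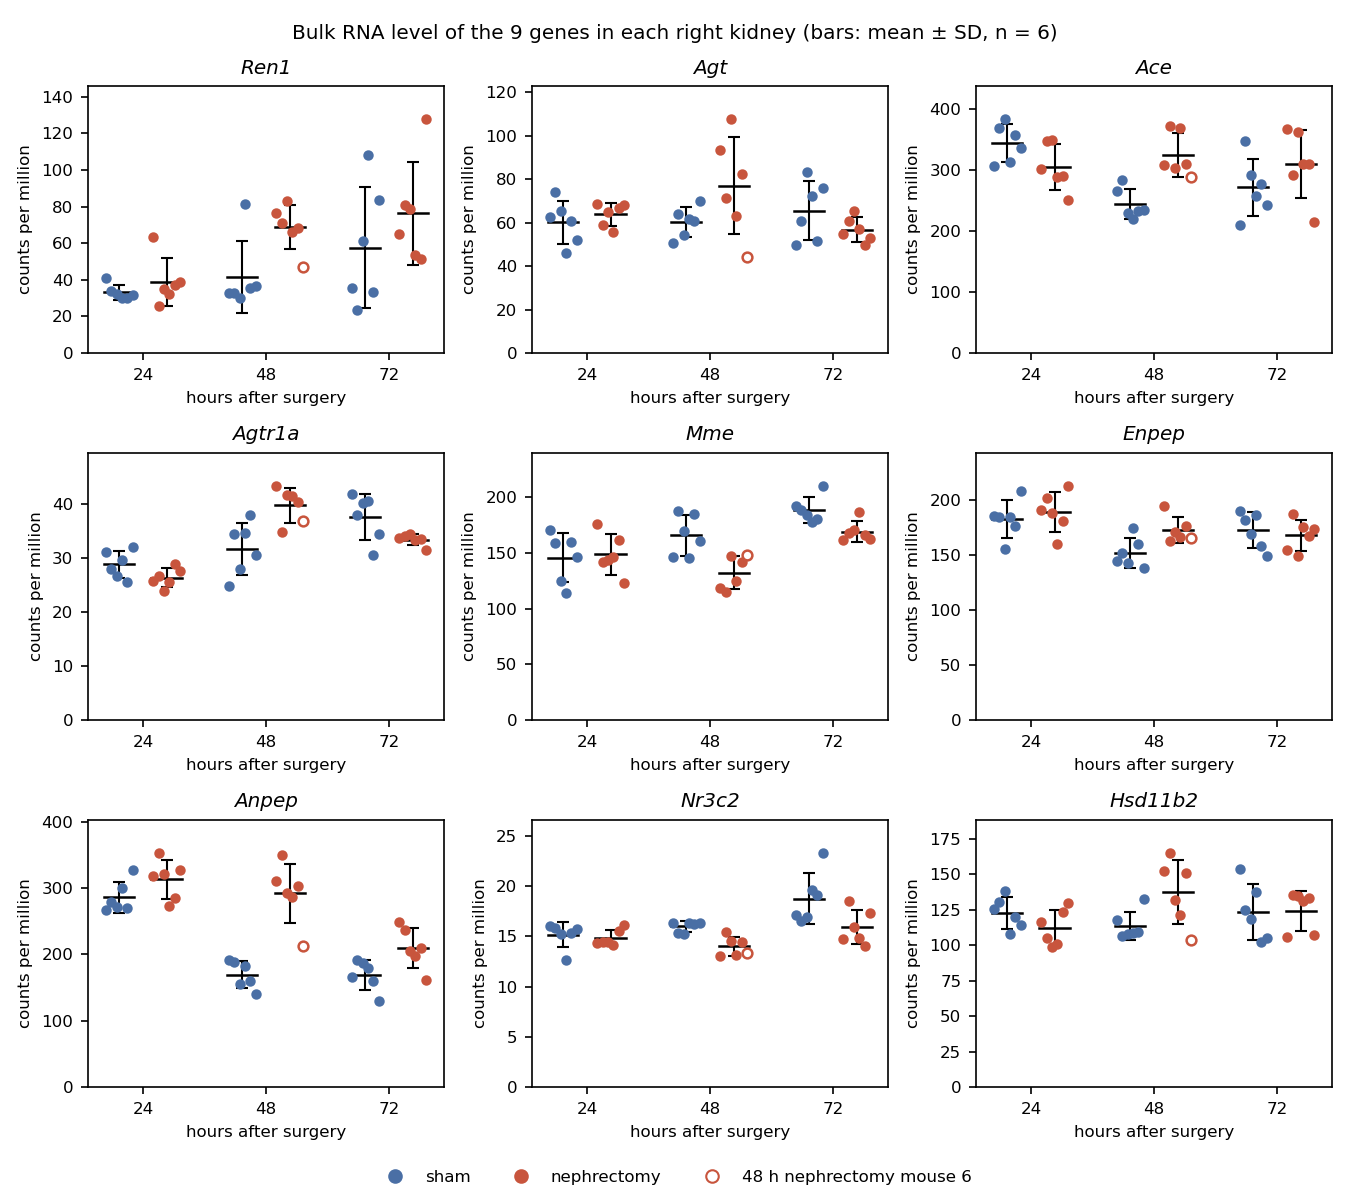
CPM of the 9 genes in each right kidney, by hours after surgery, in sham (blue) and nephrectomy (red) mice; bars give the mean ± SD of 6 mice. At 48 h all nephrectomy values of Ace and Anpep lie above all sham values, and nephrectomy mouse 6 (open circle) gives the lowest nephrectomy value of Ren1, Agt, Ace, Anpep and Hsd11b2.

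Agt, the substrate of the pathway, did not pass the test at any time. At 48 h its level was 50.5, 61.3 and 69.9 CPM (lowest, median, highest) in sham mice and 44.4, 76.7 and 107 CPM in nephrectomised mice. The sham mean was exceeded by 5 of the 6 nephrectomy libraries while mouse 6 was below every sham, so the groups overlapped widely. The difference was 0.35 log2 (SE 0.166, edgeR adjusted p = 0.114). Without nephrectomy mouse 6 it was 0.50 and passed the test (adjusted p = 0.00665), and with mouse 6 as the only nephrectomy library it was -0.44 (adjusted p = 0.294). At 24 h the Agt means were 60.1 ± 9.91 and 63.8 ± 5.22 CPM, and at 72 h 65.5 ± 13.7 and 56.6 ± 5.74 CPM (SD, n = 6), with both pairs of groups overlapping.

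Ren1, the gene of the rate-limiting protease, rose at 48 h. Sham levels were 29.9, 34.0 and 81.5 CPM and nephrectomy levels 47.3, 69.8 and 82.9 CPM (lowest, median, highest). Of the 6 shams, 5 lay at or below 36.6 CPM, under every nephrectomy value, and sham mouse 4 at 81.5 CPM made the groups overlap. The log2 fold change was 0.73 (SE 0.225, adjusted p = 0.0239). Leaving out sham mouse 4 raised it to 1.04, whereas leaving out sham mouse 2, 3 or 5 took the adjusted p just past the threshold (0.0508 to 0.0522). Mouse 6 alone against the shams gave 0.19 (adjusted p = 0.884).

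Ren1 was the most variable of the 9 genes within groups. Its coefficient of variation ran from 12.5% in 24 h shams to 57.6% in 72 h shams, with a median over the 6 groups of 35.2%, against medians of 7.60% (Nr3c2) to 14.0% (Agt) for the other 8. The 72 h shams covered 23.4 to 108 CPM and the 72 h nephrectomy mice 51.4 to 128 CPM. The 72 h difference of 0.40 log2 had an SE of 0.342 (adjusted p = 0.592). At 24 h the 6 shams covered 29.8 to 40.9 CPM, and 5 of 6 nephrectomy mice lay at or below 38.9 CPM with mouse 1 at 63.6 CPM (log2 fold change 0.22, adjusted p = 0.332).

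Ace, the enzyme that forms angiotensin II, rose at 48 h with no overlap of the groups. The shams ranged from 221 to 284 CPM (median 234) and the nephrectomy mice from 288 to 373 CPM (median 310). Ace and Anpep were the 2 of 9 genes whose nephrectomy values all lay above the shams at 48 h, as did 6.21% of all genes. On the log2 scale the rise was 0.41 (SE 0.0860, adjusted p = 0.00327). Mouse 6 was the lowest nephrectomy library at 288 CPM, close above the highest sham, and alone gave a log2 fold change of 0.24 (adjusted p = 0.455). At 24 h Ace had stood lower in nephrectomised mice, at 305 ± 38.0 against 345 ± 31.0 CPM (SD, n = 6), a difference that did not pass the test (log2 fold change -0.17, adjusted p = 0.131). At 72 h the means were 310 ± 55.7 and 272 ± 46.9 CPM (adjusted p = 0.500).

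Among the peptidases, Anpep rose, Mme fell and Enpep did not pass the test at 48 h. Anpep, which trims angiotensin III, ranged from 140 to 191 CPM in shams (median 171) and from 213 to 349 CPM in nephrectomised mice (median 297). All nephrectomy values exceeded all sham values, mouse 6 being the lowest of them. Its log2 fold change of 0.79 (SE 0.11, adjusted p = 0.000445) was the largest of the 9, and mouse 6 alone gave 0.34 (adjusted p = 0.393). In the 24 h libraries, of another batch and scaled separately, shams stood at 286 ± 23.4 CPM, near the 48 h nephrectomy mean of 292 ± 44.5 CPM. The 24 h nephrectomy mice stood at 313 ± 29.1 CPM (SD, n = 6). Levels were not tested between batches. At 72 h Anpep stood at 210 ± 30.7 against 169 ± 22.4 CPM, higher than the sham mean in 5 of 6 mice (log2 fold change 0.31, unadjusted p = 0.0118, adjusted p = 0.156). Without nephrectomy mouse 6 of 72 h it was 0.38 and passed the test (adjusted p = 0.0396).

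Mme, which degrades angiotensins and other peptides, ranged from 145 to 188 CPM in 48 h shams (median 165) and from 115 to 148 CPM in nephrectomised mice (median 133). All 6 nephrectomy values lay below the sham mean, and the ranges met only between 145 and 148 CPM. The change, -0.32 log2, passed the test with an adjusted p of 0.0140 (SE 0.0894), and mouse 6 alone gave -0.16 (adjusted p = 0.663). At 72 h all 6 nephrectomy values were again below the sham mean, at 169 ± 9.09 against 189 ± 11.6 CPM (SD, n = 6), without passing the test (log2 fold change -0.16, adjusted p = 0.132).

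Enpep, which converts angiotensin II to angiotensin III, stood at 152 ± 13.4 CPM in 48 h shams and 173 ± 11.6 CPM in nephrectomised mice. All 6 nephrectomy values exceeded the sham mean and the ranges overlapped between 163 and 175 CPM. The log2 fold change of 0.19 (SE 0.0691) missed the threshold at an adjusted p of 0.0522, and passed it with DESeq2 size factors (0.0348), and mouse 6 alone gave 0.13 (adjusted p = 0.674). At 24 and 72 h the Enpep log2 fold changes were 0.05 and -0.04.

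Agtr1a, the receptor, rose at 48 h from a sham range of 24.8 to 37.9 CPM (median 32.4) to a nephrectomy range of 34.8 to 43.3 CPM (median 40.9). The upper shams and lower nephrectomy mice overlapped between 34.8 and 37.9 CPM. The log2 fold change was 0.33 (SE 0.0973, adjusted p = 0.0204), and mouse 6, at 36.8 CPM, alone gave 0.22 (adjusted p = 0.646). At 72 h Agtr1a lay on the other side of zero: all 6 nephrectomy values, 31.6 to 34.5 CPM, were below the sham mean of 37.7 ± 4.30 CPM (SD, n = 6). That log2 fold change of -0.17 did not pass the test (unadjusted p = 0.0267, adjusted p = 0.219), but did without sham mouse 5 of 72 h (-0.22, adjusted p = 0.0465).

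Nr3c2, the mineralocorticoid receptor gene, had the lowest and steadiest level. Its 48 h shams covered 15.2 to 16.4 CPM (median 16.3) and the nephrectomy mice 13.0 to 15.5 CPM (median 13.9), so that the groups overlapped in a narrow band. The log2 fold change was -0.19 (SE 0.0635, adjusted p = 0.0335). This call was lost with DESeq2 size factors (adjusted p = 0.0537) and in 7 of the 12 fits that left out 1 mouse, although the sign stayed negative in each. Mouse 6 alone gave -0.26 (adjusted p = 0.305). At 72 h all 6 nephrectomy values lay below the sham mean, at 15.9 ± 1.71 against 18.8 ± 2.53 CPM (adjusted p = 0.208), and at 24 h the log2 fold change was -0.03.

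Hsd11b2 was measured at 106, 109 and 132 CPM in 48 h shams and 104, 142 and 165 CPM in nephrectomised mice (lowest, median, highest). The sham mean was exceeded in 5 of 6 nephrectomised mice, and mouse 6 gave the lowest value of all 12. Its log2 fold change of 0.27 (SE 0.103) did not pass the test (adjusted p = 0.0543). It passed without mouse 6 (0.37, adjusted p = 0.00324) and with DESeq2 size factors (adjusted p = 0.0394), and mouse 6 alone gave -0.13 (adjusted p = 0.660).

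With DESeq2 size factors 6 of the 9 genes were called higher and 1 lower at 48 h, in place of 4 and 2, beside 32.5% of all genes. When the profile score entered the 48 h fit as a covariate, none of the 9 was called, and 1 of the 14280 genes tested was. At 48 h the score lay above every sham in nephrectomy mice 1 to 5 and so largely followed the surgery. This fit therefore cannot tell the score and nephrectomy apart. With all 36 libraries in 1 fit and the score as a covariate, Agtr1a and Anpep were called higher, against 11.1% of all genes. With nephrectomy mouse 6 as the only nephrectomy library, none of the 9 was called, nor was any gene at an adjusted p under 0.05, although 2232 had an unadjusted p under 0.05; this fit assumes that the 1 mouse varies like the shams. The signs of the 6 called genes were the same in mouse 6 as in the whole group.

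At 24 h none of the 9 genes had an unadjusted p under 0.05 in edgeR, beside 5523 of 14104 genes tested. DESeq2 called none of the 9 there, beside 28.8% of all genes. At 72 h 4 of 9 had an unadjusted p under 0.05 in edgeR, beside 2515 of 14556 genes tested. Anpep was above and Mme, Agtr1a and Nr3c2 were below the shams. DESeq2 called none of the 9 at 72 h, beside 4.62% of all genes. The largest absolute log2 fold change at 24 h was that of Ren1.

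**Figure D2:**
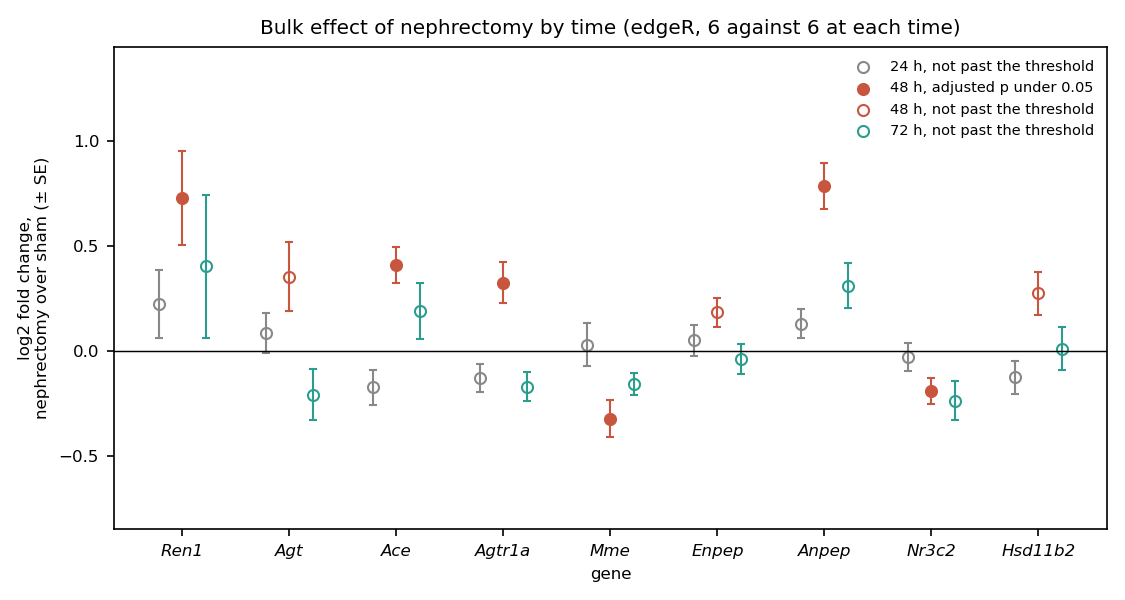
Log2 fold change of nephrectomy over sham for each gene at 24, 48 and 72 h, with SE from edgeR fits of 6 against 6 mice; filled points passed an adjusted p of 0.05. Filled points occur at 48 h in 6 genes, with Ren1, Ace, Agtr1a and Anpep above zero and Mme and Nr3c2 below.

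The effect at 48 h was tested directly against the effects at 24 and 72 h in a fit of all 36 libraries. The effect of nephrectomy was higher at 48 h than at 24 h for Anpep (difference 0.68 log2, SE 0.148, adjusted p = 0.000436), Ace (0.61, adjusted p = 0.00218), Agtr1a (0.48, adjusted p = 0.00140) and Hsd11b2 (0.43, adjusted p = 0.0183). It was lower for Mme (-0.32, adjusted p = 0.0400). These 5 of 9 stand beside 37.0% of all genes called in this contrast. From 48 to 72 h the effect dropped for Agtr1a (-0.51, SE 0.116, adjusted p = 0.00355) and Anpep (-0.48, SE 0.148, adjusted p = 0.0248), 2 of 9 beside 14.6% of all genes. Between 72 and 24 h none of 9 differed, with 4.15% of all genes called. An unadjusted p under 0.05 was found for 1 of 9 (Ace), beside 3038 of 15093 genes tested. With 48 h nephrectomy mice 1 to 5 left out, 1 nephrectomy library is left at 48 h, too few to judge a difference between times. With the score as covariate Agtr1a passed in the 72 h against 48 h contrast, beside 3.8% of all genes. No other member passed with the score, and 0.305% of all genes did in the 48 h against 24 h contrast.

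Per kilobase of exon, which allows genes to be compared, the 24 h sham levels were highest for Anpep (69.1 ± 5.67 CPM per kb), Hsd11b2 (66.7 ± 6.05) and Ace (65.2 ± 5.87; SD, n = 6), which lay within each other's spread. Enpep followed at 38.9 ± 3.62, Agt at 31.8 ± 5.24 and Ren1 at 20.0 ± 2.51 CPM per kb. Mme stood at 12.6 ± 1.92 and Agtr1a at 10.4 ± 0.920, and Nr3c2 was lowest at 2.34 ± 0.191 CPM per kb. In 48 h shams Hsd11b2 led at 61.8 ± 5.45, with Ace at 46.3 ± 4.69 and Anpep at 41.0 ± 5.06 CPM per kb.

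Other genes of angiotensin processing, a list of 18 without the members, gave 12 testable genes. At 24 h 2 were higher and 2 lower, at 48 h 4 higher and 2 lower, and at 72 h none was called; the list medians were -0.05, 0.12 and -0.03 log2. By lowest p, the 24 h genes were Renbp, the renin-binding protein (-0.36, adjusted p = 0.00455), Prep (0.18) and Nln (0.19), both peptidases. Those at 48 h were Lnpep (-0.73, adjusted p = 0.000346), Prcp (0.36) and Atp6ap2, the prorenin receptor (-0.53, adjusted p = 0.00342). Chosen after its values were seen, Mas1, an angiotensin peptide receptor, rose at 48 h (0.90, adjusted p = 0.00462). With mouse 6 as the only nephrectomy library, 4 of the 6 genes called at 48 h with all mice kept their sign. Lnpep gave -0.41, Prcp 0.35, Mas1 0.52 and Prep 0.13 log2. Atp6ap2, at 0.01 log2, was among those that did not.

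Among 16 other genes of mineralocorticoid action, all tested, 2 were higher and 4 lower at 24 h, 2 higher and 2 lower at 48 h and none at 72 h, with list medians of -0.03, 0.03 and 0.02 log2. At 24 h Scnn1a, the alpha subunit of the epithelial sodium channel, and Nedd4l, which targets that channel for degradation, were lower (-0.30 and -0.28). At 48 h Scnn1a was higher (0.41, adjusted p = 0.0113), and the glucocorticoid receptor gene Nr3c1 (-0.36, adjusted p = 0.00769) and the steroid-induced Tsc22d3 (-0.50) were lower. Mouse 6 alone gave none called of the 16, with Scnn1a at -0.06, Nr3c1 at -0.15 and Tsc22d3 at -0.53 log2. Of 17 genes of renin control, 15 were tested: 1 was lower at 24 h, 1 higher and 2 lower at 48 h and none called at 72 h, with medians of 0.02, -0.11 and -0.01 log2. Rbpj, the Notch transcription factor needed for renin-cell identity, was lower at both times (-0.27 at 24 h, adjusted p = 0.00400, and -0.22 at 48 h). Adcy6, an adenylyl cyclase, was lower at 48 h (-0.37) and Vdr, the vitamin D receptor, higher (0.29). In mouse 6 alone none of the 15 was called, and Rbpj stood at -0.21, Adcy6 at -0.37 and Vdr at -0.07 log2.

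Markers of the cells that carry these genes were measured beside them. At 48 h 3 of 10 proximal tubule markers were called higher and 1 lower (summed 10208 to 12202 CPM in shams, 10970 to 13745 in nephrectomised mice). Of 8 mural and juxtaglomerular markers 1 was higher and none lower (149 to 207 and 142 to 292 CPM), and of 6 fibroblast markers 3 were lower (170 to 291 and 85.4 to 277 CPM). At 24 h 3 of 8 mural markers were higher (116 to 149 and 134 to 257 CPM). Of 7 connecting tubule and principal cell markers, from the cells richest in Nr3c2 and Hsd11b2, 3 were higher at 24 h (435 to 605 CPM in shams, 547 to 805 in nephrectomised mice; median 0.39 log2). None of the 7 was called at 48 h, where their median was -0.32 log2 (699 to 960 and 609 to 895 CPM), or at 72 h (median 0.08). With mouse 6 as the only nephrectomy library at 48 h no marker of any of these lists was called. Whether cell make-up had a part in the changes of the 9 genes was not tested.

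The nucleus data, 16500 nuclei in 30 authors' classes with a median of 8297 UMIs, placed the 9 genes in different cells. The 4 mice gave 5342 and 2641 sham and 5151 and 3366 nephrectomy nuclei, and 18 cell barcodes occurred in more than 1 sample. Mouse 1 of each group was labelled batch 3 and mouse 2 batch 4, and levels differed between the batches within a class, so values are given in the order sham 1, sham 2, nephrectomy 1, nephrectomy 2. Levels are CPM of UMIs summed over the nuclei of a class in 1 mouse; classes are named as the authors abbreviated them.

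**Figure D3:**
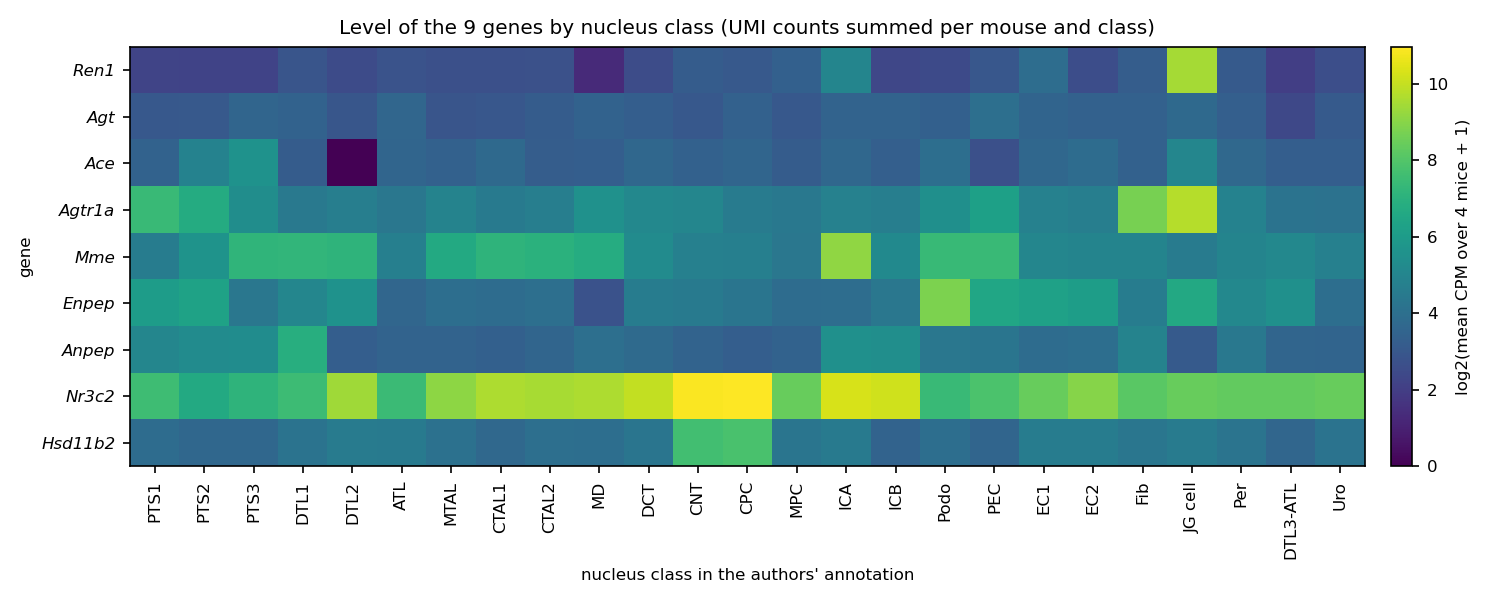
Level of the 9 genes in 25 nucleus classes, as log2 of the mean CPM over 4 mice plus 1; the Podo and JG cell classes had fewer than 10 nuclei in at least 1 mouse. Ren1 stands out in JG cell, Nr3c2 and Hsd11b2 in CNT and CPC, Enpep in Podo, Mme in ICA, and Agtr1a in JG cell and Fib.

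Ren1 was highest in the JG cell class, at 1553, 370, 551 and 401 CPM, while over all nuclei it was at 3.86, 12.7, 2.52 and 8.17 CPM. The class held 17, 6, 17 and 9 nuclei, too few in 2 mice to be tested. Within it Ren1 was unevenly spread: 15 of 49 nuclei had at least 1 Ren1 UMI, and 6 nuclei with 10 or more UMIs held 87.2% of the Ren1 UMIs of the class. These 6 were 2, 1, 1 and 2 nuclei by mouse, with 13 to 48 UMIs each, and 5 of them also had a UMI of Akr1b7, a companion gene of renin-producing cells, against 3 of the 43 other nuclei of the class. The cutoff of 10 UMIs was set after the counts were seen.

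The share of JG cell nuclei with a Ren1 UMI was 29.4% (exact 95% interval 10.3 to 56.0) in sham 1, 33.3% (4.33 to 77.7) in sham 2, 29.4% (10.3 to 56.0) in nephrectomy 1 and 33.3% (7.49 to 70.1) in nephrectomy 2. The intervals cover counting error only, and a difference between groups was not detectable at this number of nuclei. In PTS1 nuclei, which should lack renin, the shares were 0.938%, 8.36%, 1.17% and 4.19%, higher in batch 4. Median depth was 3922, 18772, 4763 and 4695 UMIs in the JG cell class and 10423, 10785, 12414 and 8358 in PTS1. After thinning every nucleus to 1754 UMIs, with none left out, the shares were 29.4%, 16.7%, 29.4% and 33.3% in JG cell and 0.209%, 0.929%, 0.260% and 0.465% in PTS1. Outside the class, 2 nuclei had 10 or more Ren1 UMIs: an EC1 nucleus of nephrectomy 1 with 32, and an ICA nucleus of sham 2 with 42 UMIs and an unusually high total of 57272. The JG cell class held 60.5%, 8.30%, 36.8% and 12.9% of all Ren1 UMIs by mouse.

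Agt had no class that led in all mice. In PTS3, which held the largest share of its UMIs (19.6%), it was at 9.78, 14.9, 4.20 and 14.3 CPM. Inside the 3 proximal tubule classes together it was at 4.06, 10.9, 2.12 and 15.8 CPM. In all other classes together it was at 2.52, 12.4, 1.95 and 17.9 CPM. The batch 4 mice were thus higher in both sets of classes.

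Most Ace and Anpep UMIs were in the proximal tubule classes, and the Ace level increased along them from PTS1 to PTS3. Ace was highest in PTS3, at 37.5, 33.7, 52.7 and 67.1 CPM, then in PTS2, at 16.0, 21.4, 28.3 and 47.7 CPM, and lower in PTS1, at 1.47, 11.6, 3.02 and 23.7 CPM. The order PTS3, PTS2, PTS1 held in each of the 4 mice. The 3 classes held 72.2% of all Ace UMIs and 51.7% of all UMIs. Anpep was higher in DTL1 nuclei, at 218, 67.2, 139 and 46.7 CPM, than in PTS3 (25.3, 29.9, 55.0 and 49.3 CPM) in 3 of 4 mice, but the proximal classes held 70.5% of its UMIs. Its level had no common order among PTS1, PTS2 and PTS3 in the 4 mice.

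At 24 h, the levels of Ace and Anpep over all nuclei were higher in the nephrectomy mouse than in the sham mouse of the same batch. Over all nuclei Ace was at 9.68, 15.5, 16.2 and 36.7 CPM and Anpep at 18.2, 24.4, 27.9 and 37.9 CPM. The nephrectomy to sham ratio was 1.67 and 2.36 for Ace and 1.53 and 1.55 for Anpep in batches 3 and 4. Without the batch as a block none of the 9 genes was called, nor any of 19975 genes, of which 360 had an unadjusted p under 0.05 in edgeR (none of the 9 did) and DESeq2 called 25. With the batch as a block, Ace (log2 fold change 1.07, SE 0.159, adjusted p = 0.0482) and Anpep (0.70, SE 0.0981, adjusted p = 0.0460) were called, 2 of 9 beside 1.04% of all genes. With 4 mice and the block, little spread is left within a gene, so these p-values rest mostly on spread shared across genes.

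By class, 146 tests of a member in 1 of 23 classes gave no call without the block, while 4 had an unadjusted p under 0.05, all of Ace or Anpep in PTS2 or PTS3. Of all 219721 tests of a gene in a class none was called and 1529 had an unadjusted p under 0.05, while DESeq2 called 68, none of a member. With the block, 3 of the 146 were called beside 0.726% of all gene-by-class tests: Anpep in PTS2 (1.08, SE 0.200, adjusted p = 0.0151), Anpep in PTS3 (0.93, SE 0.165, adjusted p = 0.0160) and Ace in PTS2 (0.99, SE 0.192, adjusted p = 0.0178). Within those classes 3.03% of genes in PTS2 and 2.47% in PTS3 were called. These p-values with the block, too, rest mostly on spread shared across genes. In PTS2 Anpep was at 28.5, 20.6, 48.3 and 55.7 CPM, and both nephrectomy mice exceeded both shams, as they did in PTS3. In PTS1 the Anpep values were 23.8, 36.7, 25.4 and 41.7 CPM (with the block, 0.20, adjusted p = 0.675). Ace missed the threshold with the block in PTS3 (0.73, adjusted p = 0.0729) and PTS1 (1.10, adjusted p = 0.0910).

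**Figure D4:**
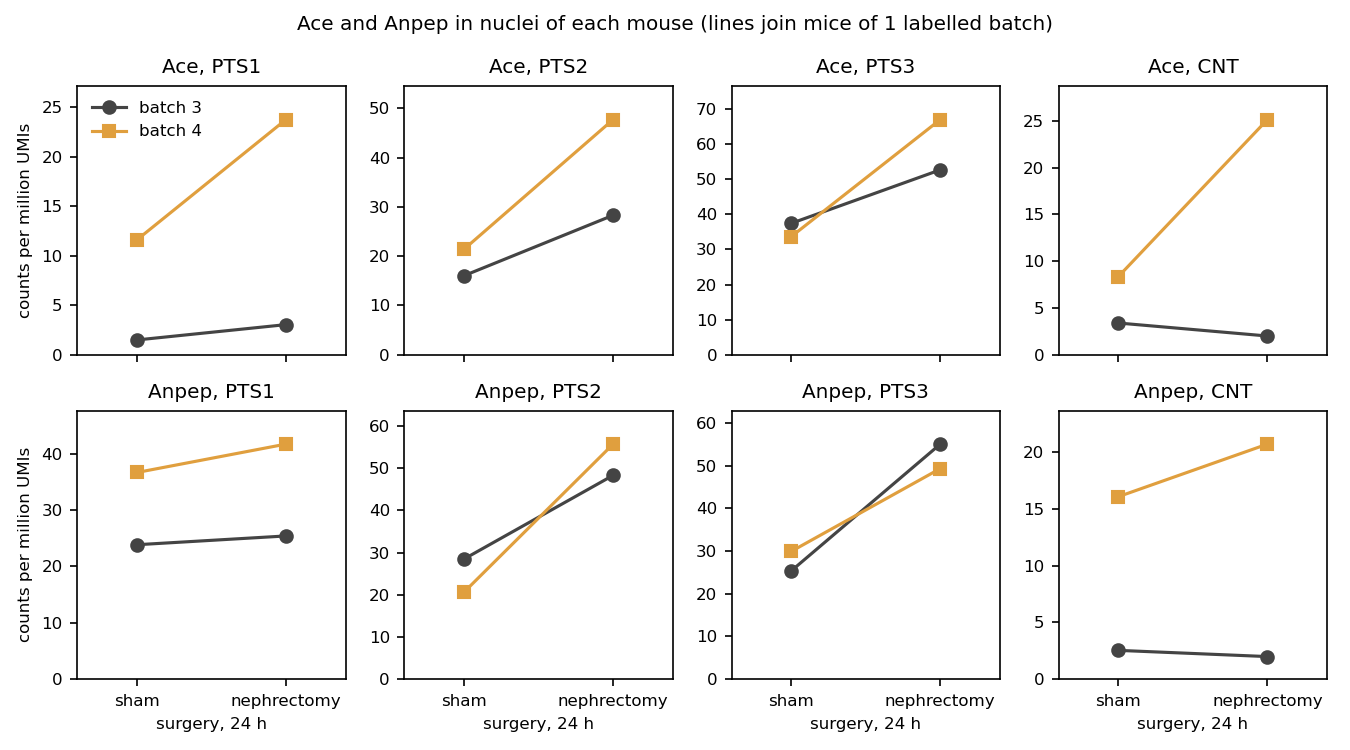
Ace (top) and Anpep (bottom) in CPM of UMIs in 3 proximal tubule classes and in CNT nuclei of each mouse at 24 h; lines join the sham and nephrectomy mouse of 1 labelled batch. In PTS2 and PTS3 both lines rise for both genes, and in CNT the batch 4 mice are above the batch 3 mice.

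Outside the proximal tubule classes, Ace was at 1.92, 11.9, 3.06 and 26.7 CPM and its ratios were 1.59 and 2.24, close to the 1.64 and 2.47 within them. Outside these classes Anpep had ratios of 1.02 and 1.48, against 1.64 and 1.62 within. In DTL1, Anpep was lower in the nephrectomy mouse of both batches (edgeR with the block, log2 fold change -0.62, adjusted p = 0.938). With the block it was also below zero in ICB (-0.22) and above zero in every other class in which it was tested. Over all classes outside PTS1, PTS2 and PTS3 together, the batch 4 mice were the higher in both genes, although not for Anpep within DTL1. The part of RNA free in the suspension in these values was not tested. At the same time, in bulk tissue of other mice at 24 h, Ace had a log2 fold change of -0.17 and Anpep of 0.13, neither passing the test.

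Mme was highest in ICA nuclei, at 992, 368, 627 and 296 CPM. The next classes, PEC (116, 161, 314 and 89.8 CPM), Podo (254, 146, 107 and 162 CPM), DTL1 (173, 117, 172 and 131 CPM) and PTS3 (122, 127, 190 and 131 CPM), did not differ beyond their spread. Because PTS3 nuclei were many, they held 29.2% of the Mme UMIs and ICA nuclei 12.6%. Enpep was highest in Podo nuclei, at 848, 234, 443 and 238 CPM, although the nephrectomy 1 value came from 2 nuclei. JG cell, PEC and EC1 nuclei were in the range of PTS2, which stood at 65.9, 70.8, 110 and 69.7 CPM. PTS1, at 60.5, 62.9, 77.1 and 66.1 CPM, overlapped PTS2 across mice, and PTS2 and PTS1 held 31.4% and 28.4% of the Enpep UMIs.

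Agtr1a was at 1828, 402, 1054 and 101 CPM in JG cell nuclei, 649, 261, 600 and 174 CPM in Fib, 203, 135, 201 and 146 CPM in PTS1 and 124, 100.1, 110 and 89.8 CPM in PTS2. Fib exceeded PTS1 and PTS1 exceeded PTS2 in each mouse, while JG cell was below Fib in nephrectomy 2. By count, PTS1 held 40.5% of the Agtr1a UMIs, PTS2 21.8%, Fib 14.6% and JG cell 1.83%. Its highest level was thus in the JG cell class in 3 of 4 mice, and most of its UMIs were in the proximal tubule.

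Nr3c2 and Hsd11b2 both stood high in the CNT and CPC classes. Nr3c2 was at 2785, 1249, 2646 and 1327 CPM in CPC and 2748, 1425, 2330 and 1220 CPM in CNT, which did not differ beyond their spread. ICA followed (1728, 808, 1714 and 774 CPM), then ICB and DCT (1314, 721, 1279 and 694 CPM). Hsd11b2 was at 306, 150, 307 and 135 CPM in CPC and 244, 170, 286 and 101 CPM in CNT, against 17.8, 33.7, 16.0 and 27.5 CPM over all nuclei. In DCT it was at 7.57, 31.5, 6.46 and 26.5 CPM, and in ICA at 14.3, 33.7, 16.1 and 25.0 CPM. Together CNT and CPC held 42.9% of the Hsd11b2 UMIs and 21.5% of the Nr3c2 UMIs. Nr3c2 was thus high in intercalated and DCT nuclei that held little Hsd11b2. Within CPC and CNT no test of nephrectomy against sham passed for either gene, with or without the block. In CNT the Hsd11b2 level was higher in the nephrectomy mouse of batch 3 and lower in that of batch 4.

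The genes whose class profile was most like each member's were found by Pearson's r of log2(CPM + 1) over 23 classes that share libraries and depth, as a description. For Hsd11b2 these were Tbck (0.92), Kcnh5 (0.91) and Scnn1g (0.87), for Agtr1a Adap2 (0.91), Errfi1 (0.85) and Maf (0.83), and for Enpep Clic5 (0.90), Fam111a (0.82) and Mvb12b (0.80). For Nr3c2 they were Akap17b (0.88), Kcnq1 (0.88) and Evi5l (0.87), and for Ace Hpd (0.84), Slc22a26 (0.84) and Scrn3 (0.82). Mme was most like Arhgap21 (0.74), Plch1 (0.71) and Tmem53 (0.69), and Anpep most like Osbpl11 (0.79), Tnpo1 (0.73) and Fxr1 (0.71). For Ren1 (Aqp6 0.78, Scfd1 0.75, Serpinb9 0.72) the profile without the JG cell class rested on 1 ICA nucleus, and for Agt (Ipo9 0.63, Pros1 0.63, Ube3b 0.63) on levels of at most 14.9 CPM. Of the 3 pathway lists, none of 687 gene-by-class tests was called without the block, and 6 had an unadjusted p under 0.05.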

How the data were processed

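Bulk values are estimated counts per gene, which the authors made with Salmon 1.5.0 on GRCm39 after FastQC 0.11.8, with R 4.10, per the submitters' processing notes; 34.1% of the deposited estimated counts are not whole, and they were rounded here. In the nucleus data, deposited estimated counts are UMIs per nucleus, made with alevin and Seurat on mm10 per the same notes (13.9% of nonzero values not whole), and the authors' annotation gave each nucleus's class. How doublets, free RNA or strand were treated is not given in the sources used here.

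Counts were summed per mouse and class, and classes with at least 10 nuclei in every mouse were tested. Tests used edgeR 4.0.16 (quasi-likelihood, TMM factors, filterByExpr, R 4.3.3) over all genes with Benjamini-Hochberg adjustment, each bulk time alone and all 36 libraries for differences between times. DESeq2 1.42.0 and the other alternatives are in the closing part. CPM used TMM library sizes. On data simulated for the 24 h bulk comparison (14104 genes), edgeR recovered 99% of 2-fold and 78% of 1.5-fold changes. The simulation gave all genes the same dispersion, so this recovery was not shown for a gene as variable as Ren1.

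Batch pairs the nucleus samples: mice with the same replicate number share a labelled batch, and their deviations from the group means correlated at 0.806. In bulk the numbers do not pair the mice. The 9 genes and all lists were chosen with earlier results of these data known. Named genes were the 9 members, the 3 lowest-p called genes of each pathway list at each time, and the 3 genes most like each member over classes (highest class at least 50 CPM). Gene positions are from GENCODE M21 and promoters from RefSeq, both on GRCm38. Some genes of the pathway lists enter the counts but are not reported here by name.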

Additional observations from a re-analysis of the deposited data

Results flagged for a closer look

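In 4 of 54 member-and-group sets of 6 bulk libraries, 1 library stood far from the nearest other by Dixon's criterion, which chance meets in about 1 in 20 groups. Ren1 stood at 63.6 CPM in nephrectomy mouse 1 at 24 h, with the next at 38.9 CPM, and at 81.5 CPM in sham mouse 4 at 48 h, with the next at 36.6 CPM. Mme stood at 186 CPM in nephrectomy mouse 4 at 72 h, with the next at 170 CPM, and Nr3c2 at 12.7 CPM in sham mouse 4 at 24 h, with the next at 15.2 CPM.

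The effect of nephrectomy differed between time points by an interaction test. Between 48 and 24 h the differences were 0.61 for Ace, 0.48 for Agtr1a, -0.32 for Mme, 0.68 for Anpep and 0.43 for Hsd11b2 (log2). Between 72 and 48 h they were -0.51 for Agtr1a and -0.48 for Anpep. All 7 involve the 48 h nephrectomy group, in which 5 libraries stand apart. With those 5 left out 1 nephrectomy library is left at 48 h, so the differences could not be checked without them.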

How the results depend on the processing

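At 48 h the 6 called members became 0 with the profile score as covariate, 0 with nephrectomy mice 1 to 5 left out, 2 with all 36 libraries and the score in 1 fit (chosen after seeing the data), and 4 to 8 when 1 mouse was left out. The score largely followed the surgery at 48 h, so the 48 h fit with it cannot tell the score and nephrectomy apart. The replicate block, whose numbers do not pair the bulk mice, gave 5 at 48 h and 0 at 24 and 72 h. Other fits at 48 h gave 5 to 8, beside 15.7 to 39.4% of all genes. The share at 48 h was 30.8% with the block and 25.8 to 41.6% with 1 mouse left out. At 72 h leaving out 1 mouse gave 0 to 1, beside 0.696 to 4.63% of all genes. At 24 h every fit gave 0, beside 1.01 to 29.2% of all genes. The 5 members differing between 48 and 24 h became 0 with the score, beside 0.305% of all genes. The 2 between 72 and 48 h became 1 with the score, beside 3.8% of all genes. Without mice 1 to 5, 1 nephrectomy library is left at 48 h, too few to judge either count. In the nuclei, the replicate block raised the called members from 0 to 2 and the member-by-class calls from 0 to 3; leaving out 1 mouse gave 0 to 0 in both.

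Signs changed in these cases, none of which passed the test. With the score as covariate: at 24 h Mme -0.24 and Nr3c2 0.066, at 48 h Agt -0.066, at 72 h Hsd11b2 -0.13. With all 36 libraries and the score: at 24 h Mme -0.12, Nr3c2 0.051 and Hsd11b2 0.067, at 72 h Hsd11b2 -0.061. Without 48 h nephrectomy mice 1 to 5: Agt -0.44 and Hsd11b2 -0.13. In differences between times with the score: 48 against 24 h Agt -0.30 and Hsd11b2 -0.0070, 72 against 48 h Nr3c2 0.011, 72 against 24 h Mme 0.023, Anpep -0.090 and Hsd11b2 -0.13. Without mice 1 to 5: 48 against 24 h Ren1 -0.020 and Agt -0.51, 72 against 48 h Ren1 0.21, Agt 0.23, Nr3c2 0.018 and Hsd11b2 0.14. Leaving out 1 mouse moved Mme at 24 h between -0.031 and 0.083 and Hsd11b2 at 72 h between -0.040 and 0.082. In the nuclei it moved Ren1 between -1.77 and 0.68, Agt between -1.93 and 1.72, Enpep between -0.11 and 0.52, Nr3c2 between -0.16 and 0.11 and Hsd11b2 between -0.73 and 0.47. The cause was not tested. With 2 mice a group, the nucleus data limit Ren1 and Agt most, which had 1056 and 1309 UMIs in all.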
